A study of Homo sapiens with 4 samples.

Results

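Transcript levels of 10 ligand genes that act on blood vessels were examined in A549 cells treated with embelin. The genes encode the vascular endothelial growth factors VEGFA, VEGFB and VEGFC, placental growth factor (PGF), the platelet-derived growth factor chains PDGFA, PDGFB and PDGFC, the vasoactive peptides adrenomedullin (ADM) and endothelin-1 (EDN1), and angiopoietin-2 (ANGPT2). They were taken by name, though with earlier results of these data known. Every probe that the array carries for them was used, which gave 21 of the 50238 probes. Of the 10 genes, 9 could be tested, among 17649 genes tested in all.

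A549 cells are an established line from a human lung adenocarcinoma. Embelin is a plant-derived benzoquinone that carries a long alkyl chain. The 2 control samples were untreated cells and the 2 embelin samples were cells given 15 µM embelin, all collected at 4 h and all moved to low-serum medium before treatment. No label says that the 2 samples of a group came from separate cultures, so p-values measure the spread between these samples, which may be technical. Each sample was hybridized with 1 dye (Cy3) to 1 array.

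The VEGF family members are secreted dimers that bind receptor tyrosine kinases, chiefly on endothelial cells. VEGFA drives the growth and permeability of blood vessels and is a textbook target of the hypoxia inducible factors (HIF), while VEGFC mainly serves lymphatic vessels, and VEGFB and PGF bind the receptor FLT1. PDGF chains pair into dimers that recruit pericytes, smooth muscle cells and fibroblasts. ADM is a vasodilator peptide, also a known HIF target, and EDN1 is a strong vasoconstrictor; ANGPT2 is made mostly by endothelial cells and acts on the receptor TEK.

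All 4 arrays were on 1 slide and in 1 scan, with the controls at positions 1 and 4 and the embelin arrays at positions 2 and 3. Outer against inner position is thus the same split as control against embelin, and they cannot be told apart. The fit with slide position used below takes position as a linear term, which cannot separate them. Between 50.3% and 66.7% of probes were well above background, the scanner software's call that a spot exceeds its surroundings. That share was high on control replicate 1 and embelin replicate 2 and low on the other arrays, so it does not separate the groups. Values are log2 intensities scaled to a common 75th percentile, called normalized log2 signal from here on, and the number of arrays limits their precision. A level is compared only between arrays at the same probe, since probes differ in how brightly they bind. The labelled cell type was borne out at epithelial keratin genes, CDH1 and EPCAM (6 of 6 well above background on all 4 arrays). The same held at genes known to be high in A549 such as AKR1B10 and ALDH1A1 (5 of 5). None of 10 endothelial markers could be kept for testing, but 1 of 6 fibroblast and pericyte markers and 3 of 5 leukocyte markers could.

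The probes printed here show what was read for VEGFA, VEGFB and PGF, since their values differed most within the VEGF family. Each is a stretch of 60 bases that the deposited files give, with at least 1 forward reading frame free of stop codons, and it is printed 5′ to 3′ in lower case.
VEGFA: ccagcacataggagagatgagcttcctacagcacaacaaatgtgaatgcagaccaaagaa
VEGFB: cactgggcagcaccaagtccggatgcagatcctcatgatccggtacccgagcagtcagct
PGF: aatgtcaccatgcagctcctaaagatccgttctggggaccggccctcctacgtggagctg

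Promoters are printed for the vasoactive peptides ADM and EDN1, whose log2 fold changes had opposite signs. The windows hold the 250 bases before a RefSeq transcript start on GRCh38.p14, at chr11:10304823-10305072 on the plus strand for ADM and at chr6:12290111-12290360 on the plus strand for EDN1. Capitals mark a TATA box, written TATAAA, and the core of a HIF-binding element, GCGTG in ADM and ACGTG in EDN1, where it lies on the opposite strand and reads CACGT.
ADM: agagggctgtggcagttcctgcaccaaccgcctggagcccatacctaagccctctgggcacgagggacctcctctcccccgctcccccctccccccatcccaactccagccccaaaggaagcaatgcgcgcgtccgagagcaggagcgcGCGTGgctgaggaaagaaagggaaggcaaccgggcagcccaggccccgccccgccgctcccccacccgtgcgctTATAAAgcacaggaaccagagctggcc
EDN1: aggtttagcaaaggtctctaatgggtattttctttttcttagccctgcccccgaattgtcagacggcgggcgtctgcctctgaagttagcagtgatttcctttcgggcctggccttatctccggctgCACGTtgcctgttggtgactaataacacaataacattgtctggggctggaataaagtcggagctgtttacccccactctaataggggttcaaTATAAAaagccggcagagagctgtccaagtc

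The HIF core lies from 101 to 97 bases before the start in ADM and from 123 to 119 bases before it in EDN1. Both printed windows carry TATAAA close to the start, from 27 to 22 bases before it in ADM and from 31 to 26 in EDN1. Of the 3 EDN1 windows, the printed one was chosen because it holds TATAAA, which the others lack. The RefSeq table held windows for 6 of the 10 genes (VEGFB, VEGFC, PGF, PDGFA, ADM and EDN1), 12 windows in all. GCGTG, searched on both strands, was found in at least 1 window of 6 of these 6 genes and ACGTG in 1, EDN1; these motifs share their last 4 letters. TATAAA on the strand of the gene was found in 2 of the 6 genes, the SP1 motif GGGCGG in 6, and the AP-1 motif TGANTCA in 0. Across the 35116 windows of the table, 32.2% held GCGTG, 18.5% ACGTG, 6.80% TATAAA, 42.6% GGGCGG and 6.57% TGANTCA. A match describes the letters only, and genes with several windows had more chances to hold one.

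Of the 9 ligand transcripts that could be tested, 3 were called higher with embelin, VEGFA, PDGFB and ADM, and 0 lower, at the threshold of an adjusted p of 0.05 in limma (Benjamini-Hochberg over all genes tested). Across all genes, 1.25% were called higher and 0.561% lower, 1.81% in all. The median log2 fold change of the 9 was 0.37, beside -0.06 for all genes tested. Of the 9, 4 were at least 2-fold higher and 1 at least 2-fold lower, where the shares over all genes were 6.66% and 5.95%. An unadjusted p under 0.05 was reached by 6 of the 9, beside 19.5% of all genes. The ligands were chosen with earlier results of these data known, so these counts are no independent support. For a single gene the exact two-sided permutation test of 2 against 2 samples cannot go below 0.333, so each call rests on the fit across all genes. In these bulk samples fewer cells of a type and less RNA per cell cannot be told apart. VEGFA, PDGFB and ADM were each called in 6 of 14 alternative settings. In the others, which include the fit with slide position, no gene of the whole table was called. Their direction was kept in 14 of 14, but most of these settings could not reverse it. Several return the same log2 fold change, and leaving out 1 array cannot reverse groups that do not overlap.

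Among the VEGF genes, VEGFA rose 12.4-fold and the other members had no call. The brightest VEGFA probe (probe 1), whose sequence is given above, read 8.77 and 8.33 in the control samples and 12.49 and 11.87 in the embelin samples. Both embelin samples lay far above both controls, and the gap between groups exceeded the gap within either. The log2 fold change was 3.63 (SE 0.31, 95% interval 2.79 to 4.47), a 12.4-fold rise (6.93 to 22.2), with an adjusted p of 0.0312 by limma.

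VEGFA has 4 probes, which share no stretch of sequence, and each of them was called in the limma fit over probes. At probe 2 the controls read 7.72 and 8.22 and the embelin samples 11.06 and 11.79. At probe 3 they read 6.86 and 7.48 against 10.35 and 10.89, and at probe 4 they read 6.71 and 6.51 against 10.01 and 9.70. The groups were apart at all 4 probes, whose log2 fold changes ran from 3.25 to 3.63 (9.49-fold to 12.4-fold). The probes ordered the replicates differently: replicate 1 was the higher sample of both groups at probes 1 and 4, and replicate 2 was the higher at probes 2 and 3.

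VEGFB, a ligand of FLT1 like PGF, was read at 2 probes that share no sequence. At its brighter probe the control samples read 13.58 and 13.67 and the embelin samples 13.64 and 13.69. The groups overlapped, and the log2 fold change was 0.04 (SE 0.16, 95% interval -0.40 to 0.48) with an adjusted p of 0.928 by limma. Its other probe, printed above, read 9.09 and 9.50 in control and 9.34 and 9.32 with embelin, again with a log2 fold change of 0.04. The interval at the brighter probe leaves room for a fold between 0.758 and 1.39.

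PGF also overlapped between the groups. Its one probe, also printed above, read 6.34 and 6.58 in control and 6.09 and 6.53 with embelin. The log2 fold change was -0.15 (SE 0.23, 95% interval -0.79 to 0.49), adjusted p 0.783 by limma. The lowest signal well above background was 5.97 on the array of embelin replicate 1 and 5.85 on that of control replicate 2. On control replicate 1 and embelin replicate 2 it was 3.83 and 3.89. PGF thus lay near the lower limit on part of the arrays, where a change could be missed.

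VEGFC, the lymphatic factor, was read by 1 probe in 3 of the 4 samples. It read 11.44 and 11.67 in control and 11.93 in embelin replicate 2, while the spot of embelin replicate 1 was marked as an outlier by the scanner software and left out. The log2 fold change was 0.37 (SE 0.25, 95% interval -0.39 to 1.13), adjusted p 0.505 by limma. With the marked spot kept, embelin replicate 1 read 13.01 and the log2 fold change became 0.91, a setting added after the values were seen. The deposited table of probe values, which holds that spot, gave 0.90 with an adjusted p of 0.365 by limma.

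**Figure D1:**
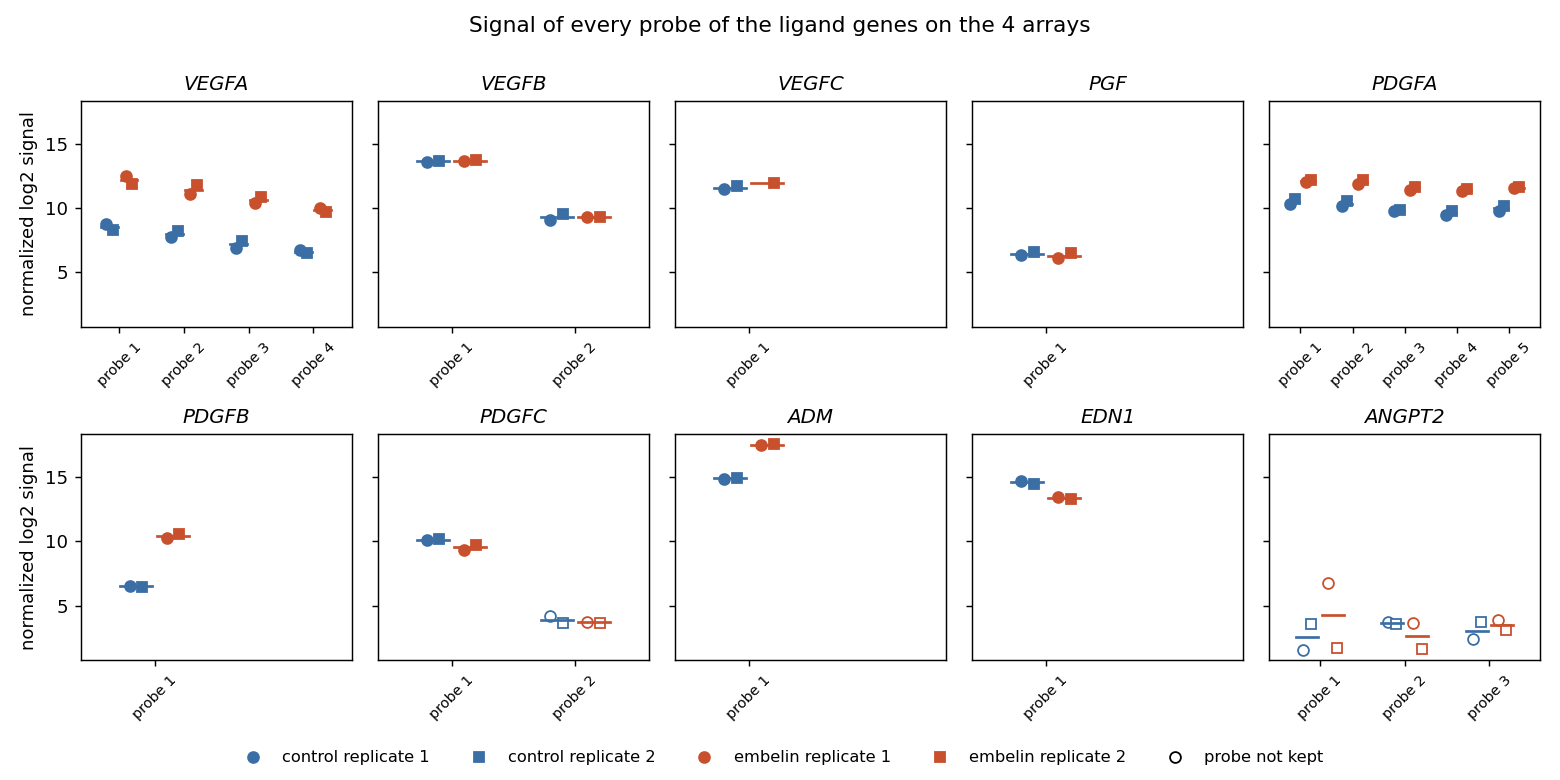
Normalized log2 signal (y axis, same scale in all panels) of every probe of the 10 ligand genes (x axis) in control replicates 1 and 2 and embelin replicates 1 and 2, with short bars at group means and open marks for the 4 probes not kept. The 4 VEGFA probes, the 5 PDGFA probes and the PDGFB and ADM probes show embelin samples above control samples, EDN1 shows them below, and at VEGFB and PGF the groups overlap.

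A difference between 2 probes taken within each array does not depend on how the arrays were scaled to each other. VEGFA minus VEGFB was -4.82 and -5.35 log2 units in the control samples and -1.15 and -1.82 in the embelin samples, a shift of 3.59. VEGFA minus PGF was 2.43 and 1.75 in control and 6.40 and 5.34 with embelin, a shift of 3.78. Each shift equals the difference of the log2 fold changes given above, so it adds no separate support. The same holds for the within-array pairs below.

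Of the PDGF chains, PDGFB rose 15.4-fold, while PDGFA and PDGFC had log2 fold changes of opposite sign that did not pass the adjusted threshold. PDGFB encodes the B chain, which forms the homodimer PDGF-BB. Its probe read 6.58 and 6.45 in the control samples and 10.30 and 10.61 in the embelin samples. The samples of a group lay within 0.32 log2 units of each other and the group means were almost 4 units apart. PDGFB thus had a log2 fold change of 3.94 (SE 0.20, 95% interval 3.40 to 4.48; 10.6-fold to 22.3-fold), adjusted p 0.0204 by limma. Its control readings were dim, that of control replicate 2 lying near 5.85, the lowest signal well above background on that array. The size of the change depended on background handling, with a log2 fold change of 3.17 under normexp background correction.

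PDGFA, the A chain, has 5 probes that fall into 2 separate stretches of sequence, the probes within a stretch sharing 46 to 57 bases, so that they are not 5 independent readings. The brightest read 10.33 and 10.67 in control and 12.03 and 12.19 with embelin. Both embelin samples were above both controls, and the same held at the other 4 probes. Its log2 fold change was 1.61 (SE 0.20, 95% interval 1.06 to 2.16), a 3.05-fold difference. Its p was 0.00114 and its adjusted p 0.0535 by limma, which is not a call; the 5 probes ran from 1.60 to 1.73 on the log2 scale. PDGFA was called in 3 of 14 alternative settings, with adjusted p from 0.00772 to 0.412.

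PDGFC, a chain that is secreted as a latent dimer and cut by proteases, had a negative value. Its kept probe read 10.11 and 10.19 in control and 9.36 and 9.73 with embelin. Both embelin samples lay below both controls, with a log2 fold change of -0.61 (SE 0.20, 95% interval -1.17 to -0.05) and an adjusted p of 0.230 by limma. Its second probe was well above background on 1 array, that of control replicate 1, and was not tested.

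The chains shifted against each other within arrays. PDGFB minus PDGFC was -3.53 and -3.74 log2 units in the control samples and 0.94 and 0.88 in the embelin samples, a shift of 4.55. PDGFA minus PDGFC was 0.22 and 0.48 in control and 2.67 and 2.46 with embelin, a shift of 2.22. The spread within groups was small beside these shifts (pooled SD 0.11 and 0.17, n = 2 per group).

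ADM, the dilator, rose, and EDN1, the constrictor, had a negative log2 fold change just short of a call. ADM read 14.87 and 14.91 in the control samples and 17.50 and 17.54 in the embelin samples. Its replicates lay within 0.04 log2 units of each other in both groups. This gave a log2 fold change of 2.63 (SE 0.16, 95% interval 2.20 to 3.06), a 6.18-fold rise (4.58 to 8.33), adjusted p 0.0223 by limma.

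EDN1 read 14.67 and 14.48 in the control samples and 13.45 and 13.31 in the embelin samples. Both embelin samples were more than 1 log2 unit below both controls. Its log2 fold change was -1.20 (SE 0.18, 95% interval -1.68 to -0.72), a level 2.29-fold lower with embelin. Its p was 0.0021 and its adjusted p 0.0651 by limma, which is not a call, and it was called in 3 of 14 alternative settings with adjusted p from 0.00787 to 0.445. Within arrays, ADM minus EDN1 was 0.32 ± 0.16 log2 units in control and 4.14 ± 0.12 with embelin (SD, n = 2), a shift of 3.82.

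ANGPT2 could not be tested at any of its 3 probes. None of them was well above background in a control sample. One probe was well above background in embelin replicate 1, where it read 6.81, beside 1.57 and 3.60 in the control samples and 1.77 in embelin replicate 2. The remaining probes were not well above background on any array. The ANGPT2 readings thus set no fold change between the groups.

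**Figure D2:**
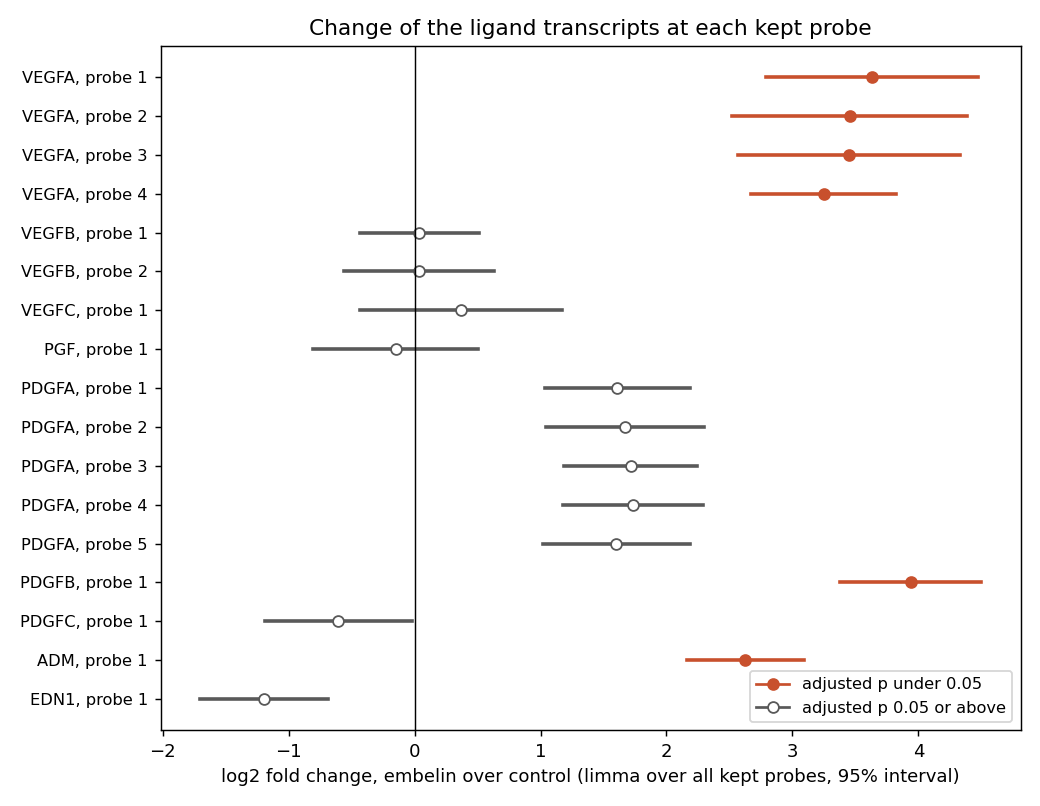
Log2 fold change of embelin over control with its 95% interval (x axis) at each of the 17 kept probes of the ligand genes (y axis), from limma over all kept probes; filled points have an adjusted p under 0.05. The 4 VEGFA probes, PDGFB and ADM are filled, the 5 PDGFA probes lie between 1.60 and 1.73 and are open, and EDN1 at -1.20 is the farthest below 0.

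Across the 8 ligand genes read in all 4 samples, embelin samples lay wholly above control samples in 4 (VEGFA, PDGFA, PDGFB and ADM) and wholly below in 2 (PDGFC and EDN1), and the groups overlapped in 2 (VEGFB and PGF). Over all genes with 4 values, 21.1% lay wholly above and 30.7% wholly below, 51.8% in all, so separation of 2 against 2 samples is common here and says little on its own. By probe, 6 of the 17 kept ligand probes were called higher and 0 lower, beside 0.83% of all kept probes called higher and 1.08% called in either direction. In the ordered list of 17649 log2 fold changes, PDGFB stood 35th from the top, VEGFA 49th, ADM 163rd and PDGFA 540th, while EDN1 stood 721st from the bottom.

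**Figure D3:**
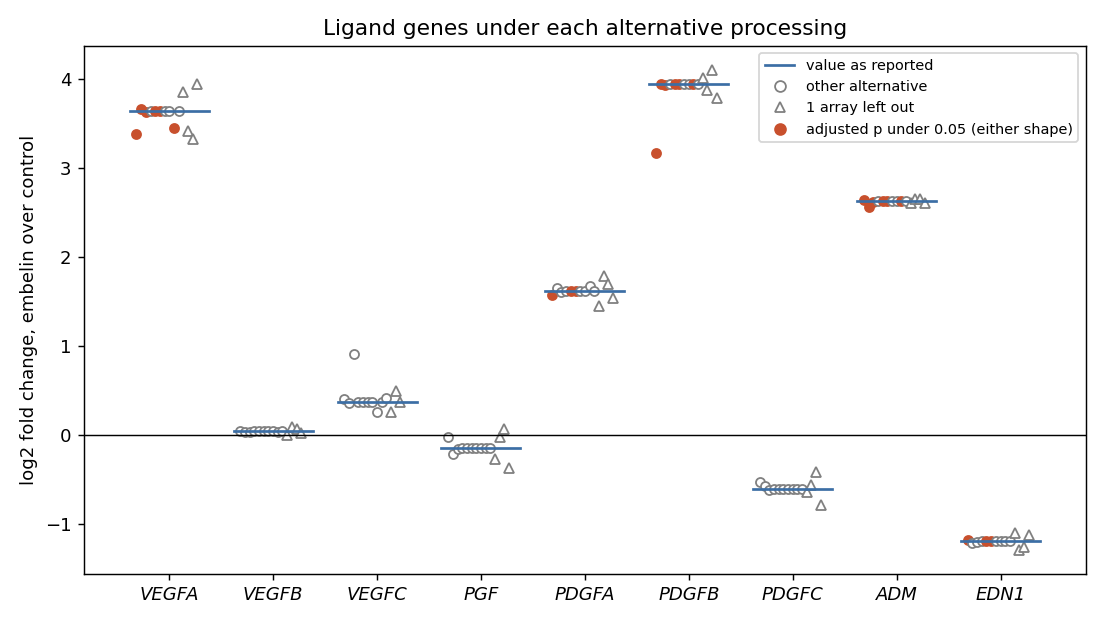
Log2 fold change of embelin over control (y axis) for the 9 tested ligand genes (x axis) as reported (bars) and under each alternative processing (circles) or with 1 array left out (triangles), filled where the adjusted p was under 0.05. VEGFA stayed between 3.32 and 3.94, PDGFB between 3.17 and 4.10, ADM between 2.56 and 2.65, PDGFA between 1.44 and 1.78 and EDN1 between -1.29 and -1.10, while VEGFB and PGF crossed 0 in 1 setting each.

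Other ligands of these families were examined next. Calls here and in the lists below stand beside 1.25% of all genes called higher and 0.561% lower. Of 7 listed (VEGFD, PDGFD, ANGPT1, ANGPT4, EDN2, EDN3 and ADM2), 4 could be tested, and 1 was called higher and 0 lower, and their median was -0.58 on the log2 scale. The call was EDN2, a second endothelin with the same constrictor receptors as EDN1. It read 7.40 and 7.72 in control and 9.57 and 9.77 with embelin, a log2 fold change of 2.11 (SE 0.20) with an adjusted p of 0.0380 by limma. EDN1 and EDN2 thus had log2 fold changes of opposite sign, that of EDN1 without a call. VEGFD, a lymphatic factor like VEGFC and named here after its values were seen, had -1.43 with an adjusted p of 0.0501 by limma, and only 1 of its 2 embelin readings was well above background.

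The receptors for these ligands were mostly too dim to test. Of 15 receptor genes, 10 were not kept, including FLT1 and KDR for VEGF, PDGFRB for PDGF, TEK and TIE1 for angiopoietins, both endothelin receptors and the ADM receptor CALCRL with its partners RAMP2 and RAMP3. None of the 5 that could be tested was called, and their median log2 fold change was 0.16. The largest values, PDGFRA at 1.37 and RAMP1 at 1.61, came from genes well above background in 1 of 2 control samples. Both were kept through the embelin group alone, so this median depends on the filter. The brightest were the VEGF co-receptors NRP1, at 13.15 and 12.74 in control and 12.26 and 12.60 with embelin, and NRP2, at 10.82 and 11.20 against 10.27 and 11.03. NRP1 had a log2 fold change of -0.51 and NRP2 one of -0.36, neither called.

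Enzymes that mature or clear the ligands gave no call among 8 tested of 12 listed, with a median of 0.07. The brightest were PLAU (urokinase, a protease that can activate latent PDGFD) and PAM, which amidates ADM. PLAU had a log2 fold change of 0.87 and PAM one of 0.25. Inhibitors of angiogenesis gave no call among 9 tested of 11, with a median of -0.30. COL18A1, the precursor of endostatin, read 16.12 and 16.19 in control and 15.76 and 15.96 with embelin (log2 fold change -0.30), and SEMA3B, a semaphorin that competes at neuropilins, had 0.74.

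Angiogenic factors of other families gave 2 calls among 12 tested of 15, both higher, with a median of 0.88. ANGPTL4, a secreted lipase inhibitor with effects on vessels, read 12.65 and 12.47 in control and 17.84 and 17.85 with embelin, a log2 fold change of 5.29 (SE 0.17). CSF2, the growth factor GM-CSF, read 6.54 and 6.24 against 8.70 and 8.78, a log2 fold change of 2.35 (SE 0.19). Their adjusted p values by limma were 0.0204 and 0.0284.

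Genes that control VEGF mRNA gave 2 calls among 15 tested of 15, again both higher, with a median of 0.10. EGLN3, a prolyl hydroxylase that marks HIF for breakdown and is itself a HIF target, had a log2 fold change of 2.73. ZFP36, the protein that binds AU-rich elements and destabilizes mRNAs such as that of VEGFA, had 2.10. HIF1A, which encodes the oxygen-regulated subunit of HIF-1 and is named here after its values were seen, read 12.54 and 12.58 in control and 11.92 and 11.97 with embelin. Both embelin samples lay below both controls, with a log2 fold change of -0.61 (SE 0.16, p 0.0168, adjusted p 0.155 by limma), which is not a call. The other HIF subunit genes of this list were not called either and differed in sign. EPAS1 had 0.73, HIF3A 1.09 and ARNT -0.09, and HIF3A was well above background in 1 of 2 control samples.

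Target lists of 2 pathways were described beside the ligands, since VEGFA is a known target of both HIF and ATF4. Both lists were chosen with earlier results of these data known, so their counts are no independent support. Of 13 HIF target genes outside the ligands, 8 were called higher and 0 lower, beside 1.25% and 0.561% of all genes. A positive log2 fold change was seen in 13 of 13, with a median of 1.83. HK2, the hexokinase of glycolysis, had the largest at 5.77, followed by NDRG1 at 4.69 and ANKRD37 at 4.10. Of 10 targets of ATF4 and CHOP, the factors of the integrated stress response, 6 were called higher, 0 lower, with a median of 1.78. ATF3 led with 5.71, then DDIT3 with 4.24 and SESN2 with 3.01. The remaining 5 and 4 genes were not called, with values down to 0.07 in the HIF list and 0.04 in the other. The part of these target genes in the ligand values was not tested.

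**Figure D4:**
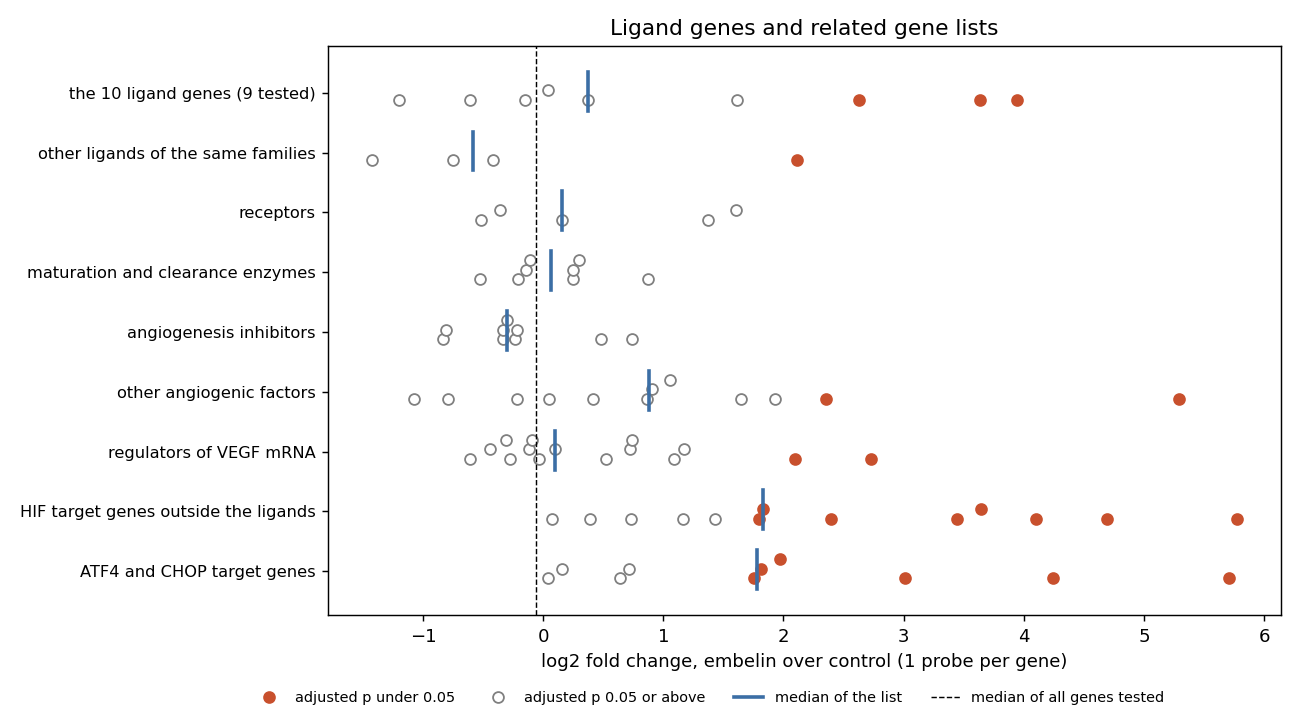
Log2 fold change of embelin over control (x axis) for each tested gene of the ligand set and of 8 related lists (y axis), with filled points for an adjusted p under 0.05, a bar at each list's median and a dashed line at -0.06, the median of all genes tested. The receptor, enzyme and inhibitor lists hold no filled point, and the medians of the HIF list (1.83) and of the ATF4 and CHOP list (1.78) lie to the right of the other lists.

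Markers of other cell types were examined because several of these ligands are also made by endothelial cells, fibroblasts and leukocytes. Of the 10 endothelial markers, 4 were not well above background on any array, and their summed scaled intensity was 128 and 370 in the control samples against 120 and 164 with embelin. Of 6 fibroblast and pericyte markers, 1 could be tested, COL1A1, with a log2 fold change of 1.30 and an adjusted p of 0.0547 by limma; the summed intensity of the list was 93.7 and 276 in control and 206 and 535 with embelin. Of 5 leukocyte markers, 3 could be tested and none was called, with a median log2 fold change of 1.25. CD3E had 1.25, ITGAM 1.35 and CD14 -0.60, and CD3E and ITGAM were well above background in 1 of 2 control samples. CD3E and ITGAM were thus kept through the embelin group alone, so the leukocyte median depends on the filter. The summed intensity of the leukocyte list was 807 and 925 in control and 588 and 1054 with embelin. The part of these markers in the ligand values was not tested. PDGFRB, TEK, TIE1 and KDR stand both in a marker list and among the receptors.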

How the data were processed

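RNA of 2 untreated and 2 embelin-treated A549 samples was labelled with Cy3 and hybridized to whole-genome Agilent arrays. The authors deposited spot intensities from Feature Extraction 10.7.3.1 (per the file headers), background-subtracted and detrended within each array and not normalized between arrays. The deposited table of probe values differed from the mean intensity over a probe's spots at 97 to 117 of 50238 probes per array (tolerance 0.001 in log2), and it keeps the marked VEGFC spot.

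Here intensities were scaled to equal 75th percentiles, the normalization named in the study's methods, given a floor of 1 and log2-transformed. Outlier spots were removed before a probe's remaining spots were averaged. A probe was kept if either group had both of its arrays well above background, which 26146 of 50238 met. The kept probe with the highest mean stood for its gene. Of all probes, 28595 were named by accession in a current RefSeq table, 2341 through another probe and 19302 as in the files. Groups were compared in R 4.3.3 with limma 3.58.1 (lmFit, eBayes) over 17649 genes, and over kept probes, with Benjamini-Hochberg adjustment. The script was tested on simulated data.

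The ligands, related lists and alternatives were chosen with earlier results of these data known. All ligands were named at every probe; of each related list, the called genes (at most 3, by largest change) or, with none called, the 2 brightest. Alternatives were normexp (offset 50), quantile normalization, the deposited table, no filter, the methods' t-test, a filter on all 4 arrays, a block for replicate number, the mean over probes, eBayes with trend and robust, slide position as a covariate, and leaving out each array. Promoter windows and motifs came from a RefSeq table (GRCh38.p14); no positions of the array's probes were used.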

Additional observations from a re-analysis of the deposited data

Results flagged for a closer look

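One ANGPT2 probe, which entered no comparison because it was not well above background on both arrays of a group, was well above background in embelin replicate 1 with a normalized log2 signal of 6.81. It was not well above background in either control sample (1.57 and 3.60) or in embelin replicate 2 (1.77), and the other ANGPT2 probes were not well above background on the array of embelin replicate 1. It was singled out as a signal above the level of the control samples in data outside the tests, and the difference was not tested. Embelin replicate 1 also had the most outlier spots, 743, beside 87 in embelin replicate 2 and 47 and 296 in control.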

How the results depend on the processing

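Of the ligand genes, VEGFA, PDGFA, PDGFB, PDGFC, ADM and EDN1 kept their direction in 14 of 14 alternatives. VEGFC kept it in 13 of 13, since it has no value without embelin replicate 2. Most of these alternatives could not reverse a direction where the groups do not overlap, so these counts add little. With 1 array left out, the log2 fold change of VEGFB ran from -0.0059 (without control replicate 1) to 0.084 (without control replicate 2), and that of PGF from -0.37 (without embelin replicate 2) to 0.069 (without embelin replicate 1). Against 3 ligand genes called higher and 0 lower, normexp correction, eBayes with trend and robust, and the filter on all 4 arrays each gave 4 and 1, adding PDGFA and EDN1. No filter on dim probes, slide position as a covariate, the methods' t-test after adjustment and each fit without 1 array (0 to 0) gave 0 ligand genes, 0 genes of the related lists, where 19 were called higher and 0 lower, 0 genes and, where fitted, 0 probes; the ligand genes at an unadjusted p under 0.05 were then 4 higher and 1 to 2 lower. With 1 array left in a group, that array is assumed to vary like the other group. Genes called over the whole table, 221 higher and 99 lower, became 126 and 33 in the deposited table, 566 and 495 with trend and robust, 422 and 277 with normexp, 419 and 345 with the filter on all 4 arrays, 177 and 63 with quantile normalization and 162 and 56 with the mean over probes. Probes, 217 and 65, became 132 and 26, 743 and 553, 541 and 278, and 476 and 292 in the first 4 of these, and 163 and 31 with quantile normalization. In the related lists, trend and robust gave 30 and 1 and the filter on all 4 arrays 20 and 1. Signal over background limits the receptors and ANGPT2, most of which had no probe kept. Same-numbered samples deviated together only weakly (correlation 0.17 across 17298 genes, which are not independent), in 2 pairs, and nothing in the labels pairs them; with the replicate block 0 ligand genes, 0 genes, 0 probes and 0 genes of the related lists were called, against an unadjusted p under 0.05 at 4 ligand genes higher and 2 lower.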
